A study of Homo sapiens with 5 samples.

Results

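SMAD4, CTNNB1, BBC3, EI24, CDC25A and IGF1 are genes that earlier work, in other cells and tissues, named as targets of the microRNA miR-483-3p. Every probe set annotated to them was taken, shared ones included, which gave 19 probe sets for 6 genes, of 54613 non-control probe sets and 21357 annotated gene symbols in all. Signals came from 5 Affymetrix 3' expression arrays of MHH-ES-1, an established Ewing sarcoma cell line grown in serum-containing medium. All cells received a synthetic microRNA duplex (a mimic) at 50 nM with a lipid reagent, and total RNA was taken after 48 h. The groups were a scrambled control mimic (2 arrays), miR-483-5p (2 arrays) and miR-483-3p (1 array). The labels call the second array of a pair a repeat, without saying whether it was a separate culture, so the p-values below rest on array-to-array spread that may be technical. The cells also carried their own copies of the miR-483 hairpin and of its host gene IGF2.

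A microRNA pairs through its seed, a short stretch near its 5' end, with sites mostly in the 3' part of messenger RNAs, and thereby lowers the stability of the messenger, its translation or both. A 3' expression array reads the first of these effects and is blind to a change in translation alone. The 2 arms of a hairpin have different seeds, so a gene paired by the 3p arm need not be paired by the 5p arm. The reported targets sit in separate pathways. IGF1 is a secreted growth factor, SMAD4 carries TGF-beta and BMP signals into the nucleus, and CTNNB1 encodes beta-catenin, the Wnt transducer and adhesion protein. CDC25A is the phosphatase that activates cyclin-dependent kinases at entry into S phase. BBC3 encodes the death inducer PUMA, and EI24 encodes an endoplasmic reticulum protein that acts in autophagy; both are induced by p53.

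The 5 arrays had median probe set signals of 39.2 to 44.9 after the deposited scaling, and pairs of arrays correlated at r = 0.969 to 0.980 across probe sets (genes are no independent replicates). The ratio of the 3' to the 5' GAPDH probe set, a sign of RNA integrity, was 1.09 and 1.10 under the 5p mimic, 1.02 and 0.996 in the control and 1.06 under the 3p mimic. All 11 Ewing sarcoma markers with a probe set of their own, among them CD99 and NKX2-2, passed the filter on dim signals, whereas 2 of 5 epithelial, 1 of 4 blood and 2 of 4 endothelial markers did, with EPCAM, PTPRC and CDH5 among those under it. The summed signal of 5 fibroblast markers, all of which passed, was 1967.5 under the 3p mimic, 2336.7 to 2477.9 under the 5p mimic and 2555.0 to 2774.3 in the control. Most of each sum was COL1A1, at 1567.2 under the 3p mimic and 2298.6 and 2091.0 in the control. LUM alone was above both controls under the 3p mimic, at 44.4 against 29.5 and 26.0. PDGFRB was above both controls under the 5p mimic, at 165.6 and 157.7 against 135.5 and 142.1. The part of the GAPDH ratio and of these markers in the results that follow was not tested.

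None of the 6 genes was called lower under the 3p mimic, and EI24 was the only gene with more than 1 probe set whose tested probe sets all differed in the same direction, upwards. Of the 19 probe sets, 16 had a mean log2(signal + 32) over all arrays above the filter and were tested. On the signal scale that filter corresponds to 27.2. The tests were limma fits on log2(signal + 32), over all 5 arrays and 32768 probe sets. In RNA from whole cultures, fewer cells with a transcript and less of it per cell cannot be told apart. The addition of 32 understates the change of dim probe sets. Percent changes given below for ends of intervals are changes of (signal + 32), and so understate them too. Under the 3p mimic against the control, 0 of the 16 passed an adjusted p under 0.05, where 0% of all probe sets did. At an unadjusted p under 0.05, 3 of the 16 were higher, against 2.01% of all probe sets tested, and 0 were lower, against 3.58%. The 3 were both EI24 probe sets and 211577_s_at of IGF1. Since the single miR-483-3p array has no repeat, the fit assumes that it varies like the paired arrays. For miR-483-5p against the control, 2 against 2 arrays can give no exact permutation p under 0.333. With 1 array against 2, as for miR-483-3p, that limit is no lower.

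**Figure D1:**
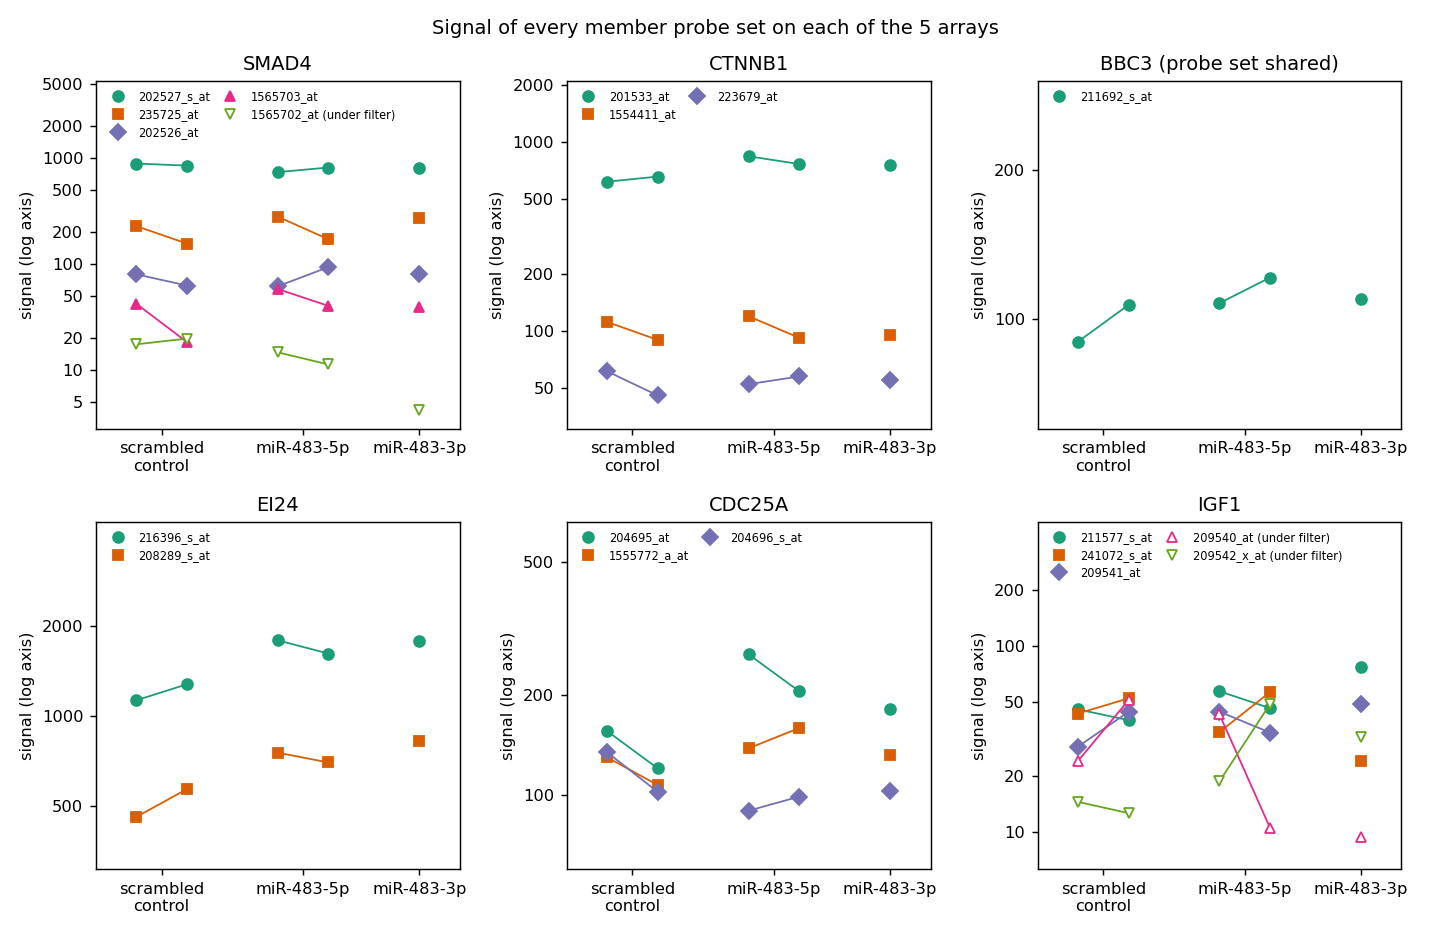
Signal on a log axis for every probe set of the 6 genes, by array; lines join the 2 arrays of a pair, and open symbols mark the 3 probe sets under the filter. Both EI24 probe sets lie higher in all 3 mimic arrays (697.4 and above for 208289_s_at) than in the controls (567.5 and below). The mimics and controls overlap in all SMAD4 and CTNNB1 probe sets except 202527_s_at and 1565702_at (mimics below) and 201533_at (mimics above). In 235725_at of SMAD4 the miR-483-3p array and the first miR-483-5p array lie above both controls, and the second miR-483-5p array lies between the controls.

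IGF1, the ligand among the reported targets, gave no single picture. Probe set 211577_s_at had a signal of 77.7 under the 3p mimic, 57.3 and 46.5 under the 5p mimic, and 45.8 and 40.1 in the control. The miR-483-3p array was the highest of the 5, and the log2 difference from the control was 0.55 (SE 0.20, limma adjusted p = 0.826). Probe set 241072_s_at went the other way, at 24.1 under the 3p mimic, 34.6 and 56.7 under the 5p mimic, and 43.5 and 52.5 in the control. There the miR-483-3p array was the lowest of the 5, with a log2 difference of -0.51 (SE 0.24, limma adjusted p = 0.907). Without the first or without the second miR-483-5p array, 241072_s_at had a limma unadjusted p of 0.0384 against the control, at the same difference. The third tested probe set, 209541_at, had 49.2 under the 3p mimic against 28.9 and 44.4 in the control, and 44.5 and 34.4 under the 5p mimic.

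The other 2 IGF1 probe sets lay under the filter and were not tested. Probe set 209540_at had 9.5 under the 3p mimic, 43.1 and 10.6 under the 5p mimic, and 24.2 and 51.3 in the control, so that arrays of a pair differed as much as the groups. Probe set 209542_x_at, whose suffix marks probes that may match other transcripts, had 32.4 under the 3p mimic, 18.8 and 48.9 under the 5p mimic, and 14.6 and 12.7 in the control. No IGF1 value on any array exceeded 77.7. The values came without detection calls, so whether IGF1 lay above background is unknown here.

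SMAD4, the shared partner of the receptor-regulated SMAD proteins, had signals of 810.2 under the 3p mimic, 735.9 and 812.4 under the 5p mimic, and 885.7 and 847.4 in the control in probe set 202527_s_at. The miR-483-3p array lay below both controls and between the miR-483-5p arrays. The log2 difference of miR-483-3p from the control was -0.09, with a 95% interval of -0.54 to 0.36, whose lower end is a change of -31.4%. Between miR-483-5p and the control the difference was -0.16, and between the arms it was 0.06, with an interval of -0.39 to 0.51. It was the only tested probe set of the 16 in which all 3 mimic arrays lay below both controls, a pattern found in 13.3% of all probe sets.

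The other 3 tested SMAD4 probe sets did not show this order. Probe set 235725_at had 269.1 under the 3p mimic, 279.4 and 171.3 under the 5p mimic, and 227.8 and 155.9 in the control, a log2 difference of 0.45 for miR-483-3p with an SE of 0.32. The arrays of the 5p pair differed by more than the 3p mimic array did from the control mean. Probe set 202526_at had 79.7 under the 3p mimic, 61.7 and 93.5 under the 5p mimic, and 80.0 and 62.7 in the control, and 1565703_at had 39.6, then 58.1 and 40.3, then 42.2 and 18.4. In both, the groups overlapped. Probe set 1565702_at, under the filter, had 4.2 under the 3p mimic, 14.7 and 11.3 under the 5p mimic, and 17.5 and 19.8 in the control, so that all 3 mimic arrays again lay below both controls. When the filter was removed, this dim probe set had a log2 difference of -0.48 for miR-483-3p against the control (limma unadjusted p = 0.0233).

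CTNNB1, the beta-catenin gene, had signals of 749.1 under the 3p mimic, 837.4 and 761.8 under the 5p mimic, and 614.5 and 653.8 in the control in probe set 201533_at. All 3 mimic arrays lay above both controls. The log2 difference of miR-483-3p was 0.23, with a 95% interval of -0.22 to 0.68 (limma adjusted p = 0.971), whose lower end is a change of -14.2%. Under the 5p mimic it was 0.32 (limma adjusted p = 0.642). The other probe sets gave smaller differences, with groups that overlapped. Probe set 1554411_at had 94.5 under the 3p mimic, 119.3 and 91.8 under the 5p mimic, and 111.3 and 89.5 in the control. Probe set 223679_at had 54.9, then 52.2 and 57.3, then 61.0 and 45.5 in the same order.

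CDC25A, the S phase phosphatase gene, read highest under the 5p mimic in 2 of its 3 probe sets. Probe set 204695_at had 181.6 under the 3p mimic, 265.0 and 205.4 under the 5p mimic, and 156.0 and 120.6 in the control. The 3 groups did not overlap there, with the control lowest and miR-483-5p highest. The log2 difference from the control was 0.33 (SE 0.23, limma adjusted p = 0.963) under the 3p mimic and 0.65 (SE 0.19, limma adjusted p = 0.528) under the 5p mimic, and the difference between the arms was -0.31 (limma adjusted p = 0.928). Probe set 1555772_a_at had 132.5 under the 3p mimic, 138.5 and 159.3 under the 5p mimic, and 130.1 and 107.5 in the control, in the same order. Probe set 204696_s_at had 103.2 under the 3p mimic, 90.0 and 99.2 under the 5p mimic, and 134.7 and 102.5 in the control. Here the miR-483-5p pair lay below both controls, the opposite of the other 2 probe sets of the gene, and the miR-483-3p array lay between the controls.

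BBC3, the PUMA gene, is measured by 211692_s_at alone, which the annotation lists for the microRNA genes MIR3190 and MIR3191 as well, so its signal is not assigned to one gene. It had 109.5 under the 3p mimic, 107.5 and 121.1 under the 5p mimic, and 89.8 and 106.6 in the control. The 3 mimic arrays lay above both controls, the lowest of them by less than the gap between the control arrays. The log2 difference of miR-483-3p was 0.12, with a 95% interval of -0.35 to 0.59 (limma adjusted p = 0.999), and that of miR-483-5p was 0.17.

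EI24, the autophagy gene, had signals of 1779.3 under the 3p mimic, 1790.7 and 1617.4 under the 5p mimic, and 1126.9 and 1275.7 in the control in probe set 216396_s_at. In 208289_s_at it had 824.0 under the 3p mimic, 752.0 and 697.4 under the 5p mimic, and 457.9 and 567.5 in the control. In both probe sets the 3 mimic arrays lay above both controls. The signal under the 3p mimic was 1.48 and 1.61 times the control mean, and that under the 5p mimic 1.42 and 1.41 times. The log2 differences were 0.56 (SE 0.20) and 0.66 (SE 0.21) under the 3p mimic, at limma adjusted p-values of 0.826 and 0.799, and 0.49 (SE 0.16) and 0.48 (SE 0.17) under the 5p mimic, at 0.557 and 0.571. Both comparisons use the same control arrays.

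The log2 difference of EI24 between the arms was 0.06 and 0.18, with 95% intervals of -0.41 to 0.53 and -0.32 to 0.68. A difference of that size between the arms can therefore be neither shown nor excluded. Without the first control array the differences of miR-483-3p from the control were 0.47 and 0.51, and neither kept an unadjusted p under 0.05. The GAPDH ratio of 1.06 to 1.10 in the mimic arrays, against 0.996 and 1.02 in the controls, separates the same arrays as EI24, and its part in the difference was not tested.

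**Figure D2:**
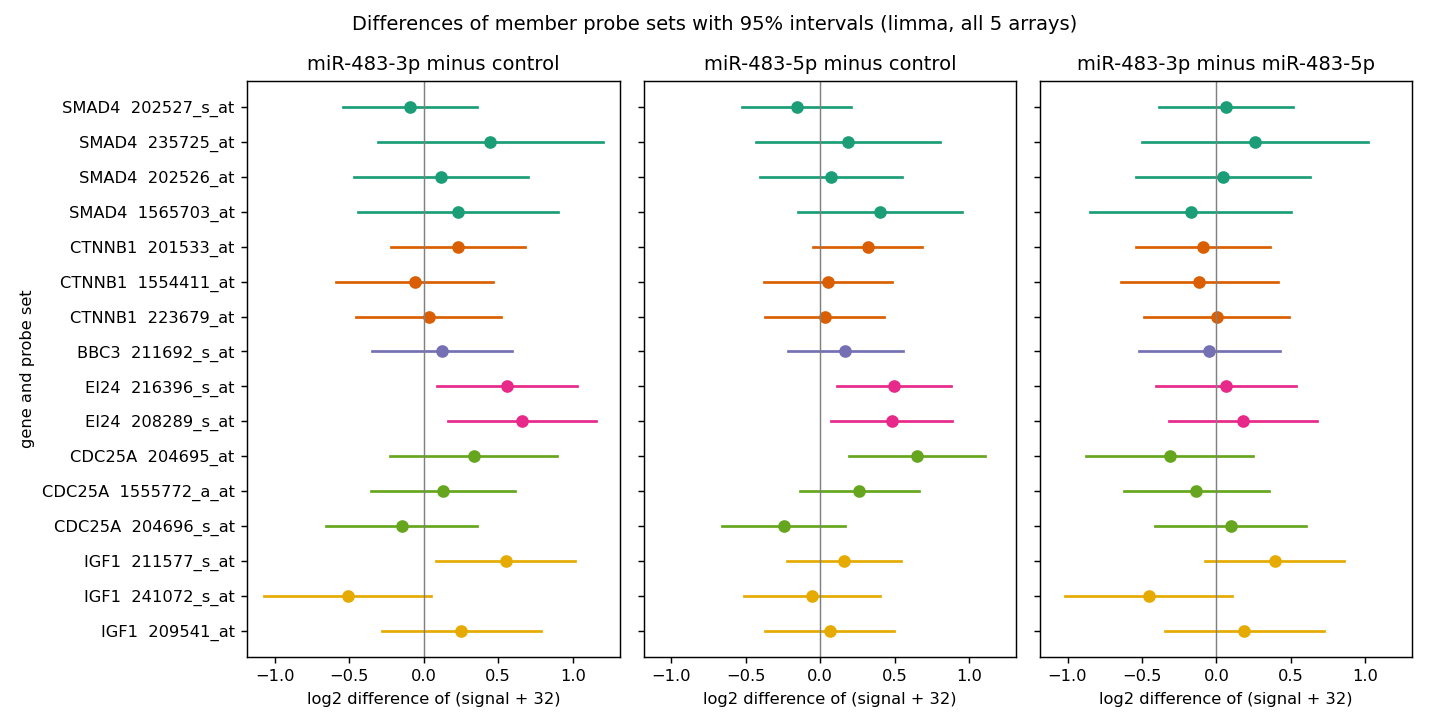
Log2 differences of (signal + 32) for the 16 tested probe sets in 3 comparisons, as points with 95% intervals from limma, coloured by gene; the intervals are not adjusted for the number of probe sets. Both EI24 intervals lie above 0 against the control under either mimic, and every interval between the arms includes 0.

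The miR-483-3p array lay above both control arrays in 9 of the 16 tested probe sets, where 32.5% of all probe sets did so. Each of the 6 genes had at least 1 of these 9. A gene with several probe sets meets that more readily, and the share of all genes that meet it was not computed. For SMAD4 it was 235725_at alone. The miR-483-3p array lay below both controls in 2, 202527_s_at of SMAD4 and 241072_s_at of IGF1, where 35.6% of all probe sets did. It was the lowest of the 5 arrays in 1, again 241072_s_at, where 18.7% of all did, and the highest in 3, where 17.3% did. The median log2 difference of the 16 was 0.18 (from -0.51 to 0.66), and that of all probe sets tested was -0.01. Of 16 log2 differences, 12 were above 0, where 48.9% of all probe sets were. Probe sets of a gene share a transcript and are not independent, and with a pseudocount of 100 the median was 0.10.

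Most of that displacement appeared with the other arm too. Under the 5p mimic against the same controls the median of the 16 was 0.17, and 13 differences were above 0, where 46.8% of all probe sets were. In 7 probe sets the pair of miR-483-5p arrays lay above both controls, and in 2 below both, where 18.5% and 21.2% of all probe sets did. All 3 mimic arrays lay above both controls in 7, from CTNNB1, BBC3, EI24, CDC25A and IGF1, where 11.6% of all probe sets did. At an unadjusted p under 0.05, 3 of the 16 were higher under the 5p mimic (204695_at of CDC25A and both of EI24), where 4.06% of all probe sets were, and 0 were lower, where 4.27% were. Without the first miR-483-5p array none of these 3 kept that level, without the first control array both EI24 probe sets lost it, and without the second control array 204695_at did. None passed an adjusted p under 0.05, where 0% of all did.

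Set directly against miR-483-5p, the miR-483-3p array differed by a median of 0.02 over the 16, lay above both miR-483-5p arrays in 4 (32.8% of all) and below both in 5 (33%), with 9 differences above 0, where 50.9% of all probe sets were. None of the 16 had an unadjusted p under 0.05, where 2.44% of all were higher and 3.27% lower at that level, and 0% passed an adjusted p under 0.05. The lowest limma adjusted p of the 16 was 0.902, in 2 IGF1 probe sets that differed in opposite directions, 211577_s_at by 0.39 and 241072_s_at by -0.45. The precision allows repression to go uncalled, 2-fold repression included, as the simulated data at the end of this paragraph show. For the probe set of each gene with the highest mean, the lower end of the 95% interval of miR-483-3p against the control was a change of -31.4% for SMAD4, -21.4% for BBC3, -14.4% for CDC25A and -14.2% for CTNNB1. For EI24 and IGF1 that lower end was 6.25% and 6.0% above the control. The mean that chose 211577_s_at for IGF1 includes its miR-483-3p signal of 77.7. In the control its mean was 42.95, below the 48 of 241072_s_at, so the IGF1 end depends on that choice. Other probe sets of the same genes allowed more, down to -52.4% in 241072_s_at of IGF1, -36.4% in 204696_s_at of CDC25A and -33.5% in 1554411_at of CTNNB1. On simulated data for this comparison with 32768 probe sets, the fit recovered 1% of those changed 2-fold and 71.75% of those changed 4-fold.

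Genes that act beside the reported targets were taken from 7 lists, with the probe set of highest mean for each gene. Over the 14591 genes so measured, 1.79% were higher and 3.35% lower under the 3p mimic than in the control at an unadjusted p under 0.05, 49.8% of differences were above 0 and the median was -0.001. For miR-483-5p against the control the shares were 4.24% higher and 4.45% lower at that level, 48.5% of differences above 0 and a median of -0.008. No listed gene passed an adjusted p under 0.05, in any of the 3 comparisons, where 0% of all probe sets did.

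Around SMAD4, 29 of 31 listed genes were tested, 15 were higher and 14 lower under the 3p mimic, and none had an unadjusted p under 0.05, with a median of 0.02. SMAD3, a receptor-regulated SMAD, had the lowest p, at 357.3 under the 3p mimic against 268.3 and 262.9 in the control, and 299.8 and 261.3 under the 5p mimic. The BMP target ID2 was at 2939.0 against 3637.1 and 4005.0 in the control, and the co-receptor TGFBR3 at 72.4 against 106.7 and 108.9. Between the arms, 5 of the 29 were higher and 24 lower under the 3p mimic, where 50.9% of all probe sets were higher. Under the 5p mimic against the control, 4 of the 29 were higher at an unadjusted p under 0.05, where 4.24% of all genes were, and none lower. They were the receptor TGFBR1, the ligand TGFB2, the inhibitory SMAD7 and PMEPA1. TGFBR1 had 411.5 and 342.2 under the 5p mimic, 187.0 and 202.7 in the control and 208.6 under the 3p mimic, and differed between the arms by -0.76 on the log2 scale (limma adjusted p = 0.785).

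Around CTNNB1, 30 of 33 genes were tested, with 15 higher and 15 lower, a median of 0.02, and 1 gene in each direction at an unadjusted p under 0.05. The Wnt antagonist DKK1 had 54.0 under the 3p mimic against 97.4 and 94.5 in the control, and 71.0 and 87.4 under the 5p mimic. The beta-catenin cofactor BCL9 had 265.6 under the 3p mimic against 191.0 and 158.4 in the control, and was also above the control under the 5p mimic, at 302.3 and 271.6. At an unadjusted p under 0.05 the 5p mimic had BCL9, TCF7L2 and FZD7 higher (3 of 30, where 4.24% of all genes were) and none lower. PYGO2, whose product binds BCL9, had 439.9 against 330.6 and 387.4. The most negative value of the list, singled out after it was seen, was the scaffold gene AXIN1 at 70.1 under the 3p mimic and 181.9 and 185.4 in the control. Its miR-483-5p arrays read 236.6 and 12.3, so the arrays of a pair disagreed by more than the groups.

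Around BBC3, 13 of 15 genes of the BCL2 family were tested. Under the 3p mimic 9 were higher and 4 lower, the median was 0.07 and none had an unadjusted p under 0.05. The lowest p were those of BOK, a BAX relative, at 33.8 against 51.3 and 82.4 in the control, of the BH3-only gene HRK at 76.3 against 60.9 and 51.2, and of BAD at 223.4 against 183.5 and 175.7. PMAIP1, the p53 target NOXA, was at 469.1 under the 3p mimic, 513.4 and 476.1 in the control and 642.2 and 668.9 under the 5p mimic. With miR-483-5p against the control it was the only gene of the 13 at an unadjusted p under 0.05, where 4.24% of all genes were higher.

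Of 20 genes of the p53 axis, which joins BBC3 and EI24, 18 were tested. Under the 3p mimic 12 were higher and 6 lower, with a median of 0.10, and 1 was higher at an unadjusted p under 0.05. This was the DNA repair gene DDB2, at 95.4 against 32.9 and 54.8 in the control, and 72.1 and 41.0 under the 5p mimic. TP53INP1, an autophagy and stress gene, had 397.0 under the 3p mimic, 528.0 and 398.2 under the 5p mimic, and 288.7 and 273.3 in the control. The nuclease gene AEN had 206.1 under the 3p mimic against 157.6 and 134.4. Under the 5p mimic, GADD45A, TP53INP1 and RRM2B were higher at an unadjusted p under 0.05 (3 of 18, where 4.24% of all genes were) and none was lower.

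Of 18 autophagy genes, the process in which EI24 acts, all were tested, and 6 were higher and 12 lower under the 3p mimic, with a median of -0.07 and none at an unadjusted p under 0.05. MAP1LC3B had 1199.2 under the 3p mimic against 999.7 and 989.2 in the control. ATG12 had 484.1 against 584.7 and 576.0, and ATG16L1 had 307.1 against 375.0 and 354.9. Under the 5p mimic 14 of the 18 were lower, where 48.5% of all genes were higher, and the median was -0.19 beside -0.008 for all genes. With that mimic ATG9A and SQSTM1 were lower at an unadjusted p under 0.05 (2 of 18, where 4.45% of all genes were) and none was higher. EI24 itself, with its higher signals above, did not share the sign of these medians.

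Around CDC25A, 17 of 18 genes of cyclin-dependent kinase control were tested. Under the 3p mimic 13 were higher and 4 lower, with a median of 0.18, and none had an unadjusted p under 0.05. CCNE2, the S phase entry cyclin, had 515.1 under the 3p mimic, 546.9 and 536.7 under the 5p mimic, and 399.3 and 400.4 in the control, so that all mimic arrays lay above both controls. CDK1 had 2151.2 under the 3p mimic against 1567.7 and 2006.6, and CCNB1 2527.7 against 2025.2 and 2262.6. The median under the 5p mimic was 0.17, and CDC25C, CCNE2, CCND1 and CCNA2 were higher at an unadjusted p under 0.05 (4 of 17, where 4.24% of all genes were) and none was lower. CDC25A thus had the sign of most of these genes in 2 of its 3 probe sets.

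Around IGF1, 16 of 20 genes were tested, with 7 higher and 9 lower under the 3p mimic, a median of -0.02 and 2 lower at an unadjusted p under 0.05. These were the receptor substrate IRS2, at 801.7 under the 3p mimic against 1199.5 and 1167.4 in the control, and the insulin receptor gene INSR, at 61.3 against 89.9 and 123.2. Under the 5p mimic both genes lay below both controls as well, IRS2 at 1042.7 and 989.1 and INSR at 86.7 and 68.7. IGFBP3, which binds the ligand, had 506.8 under the 3p mimic, 493.4 and 411.3 under the 5p mimic, and 709.4 and 667.0 in the control. Under the 5p mimic 10 of the 16 were higher and 6 lower, with a median of 0.19. At an unadjusted p under 0.05, IGFBP6 and IGFBP5 were higher and the adaptor gene GRB2, IGFBP3 and IGFALS were lower. Of all genes, 4.24% were higher and 4.45% lower at that level. The 3 probe sets of IGF2, the host gene of the hairpin, are shared with the readthrough gene INS-IGF2. Probe set 202409_at had 236.1 under the 3p mimic, 469.8 and 355.6 under the 5p mimic, and 189.2 and 204.7 in the control. The same order gave 16.6, then 108.4 and 86.1, then 13.3 and 12.8 in 202410_x_at, and 13.3, then 71.2 and 55.0, then 9.4 and 13.6 in 210881_s_at. In all 3 the miR-483-5p pair stood above the other arrays.

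**Figure D3:**
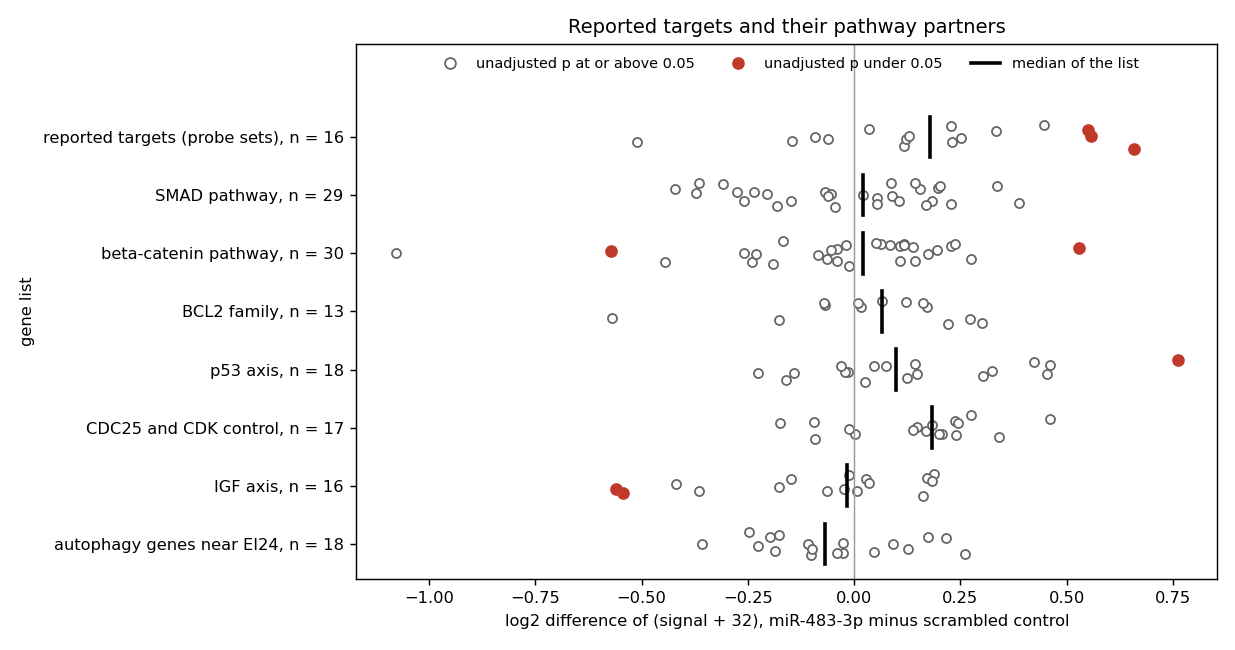
Log2 difference of (signal + 32) between miR-483-3p and the control for the 16 tested probe sets of the reported targets and for each tested gene of 7 pathway lists; bars are medians, filled points have an unadjusted p under 0.05, and vertical scatter has no meaning. The reported targets have a median of 0.18 and the kinase control list one of 0.18, and the other 6 medians lie between -0.07 and 0.10.

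The genes whose values ran most like those of each reported target over the 5 arrays were also listed, as a description. With 5 arrays high correlations are common, and 0.459% to 1.67% of other probe sets had r above 0.95 with a given target. The closest to 216396_s_at of EI24 were the tetraspanin gene CD9 (r = 0.9994), at 391.3 under the 3p mimic, 401.4 and 357.2 under the 5p mimic, and 238.8 and 277.2 in the control, and GTSE1 (r = 0.9989). The closest to 202527_s_at of SMAD4 were PCGF5 and SYDE2 (r = 0.9994 and 0.9989). For 201533_at of CTNNB1 they were PPP6R3 and the spindle checkpoint gene BUB1B (0.9992 and 0.9981), and for 204695_at of CDC25A, SLC22A17 and GTPBP4 (0.9995 and 0.9984). For the shared BBC3 probe set they were LMAN1 and EXOC3L1 (0.9985 and 0.9983), and for 211577_s_at of IGF1, AJAP1 and ABCC4 (0.9998 and 0.9948).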

How the data were processed

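The authors deposited linear probe set intensity values for 54675 probe sets on 5 arrays, and each array has the same mean, 150.02, once 2% of values are trimmed from either end. GCOS and Partek are named by the submitters' processing notes; how signals were summarised is not stated in these sources. Groups came from the labels. Control probe sets (62) were left out. Platform annotation gave 41091 probe sets 1 symbol, 1801 several and 11721 none, and 41037 of the first matched the RefSeq gene table of GRCh38.p14, used for names alone. Probe sets whose mean log2(signal + 32) lay under the 40th percentile were left out of tests, leaving 32768, where the earlier unit of 1 probe set a gene became an alternative. Limma 3.58.1 in R 4.3.3 fitted a mean per group over all 5 arrays, with 2 residual and 4.66 prior degrees of freedom, two-sided tests and Benjamini-Hochberg adjustment over all probe sets tested, in 3 comparisons. Precision is limited by the number of arrays.

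The genes and lists were chosen with earlier results of these data known. The genes named were all members, the 3 genes of each list with the lowest p for miR-483-3p against the control, the 2 genes most correlated with each member over the arrays, and IGF2. Genes of the lists at an unadjusted p under 0.05 with miR-483-5p were named after their values were seen. On simulated data, with 200 of 32768 probe sets changed, 95% intervals covered the true difference in 94.88% to 95.02% of cases and 3.85 to 4.75 false calls arose per simulation. The alternatives were 13 other settings. The mature miR-483 sequences were not used here. The plots were made in matplotlib 3.10.9.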

Additional observations from a re-analysis of the deposited data

How the results depend on the processing

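The count of probe sets with a limma adjusted p under 0.05 was 0 in all 3 comparisons under each of the 13 alternatives, beside 1135 to 3434 probe sets at an unadjusted p under 0.05 for miR-483-3p against the control, 1188 to 3427 between the arms and 1729 to 4196 for miR-483-5p against the control (the lowest of the last without the second control array). The median over the reported targets for miR-483-3p against the control was 0.28 with 1 probe set a gene, 0.10 with a pseudocount of 100, and 0.13 to 0.21 when an array was left out. For miR-483-5p it was 0.12 to 0.21 without an array, and between the arms -0.009 to 0.023. Of 579 differences of target probe sets recomputed, 28 changed sign and none was called. With a replicate block for first arrays against repeats, which the labels' word repeat allows but no number pairs, the sign changed to -0.011 for 223679_at of CTNNB1 against the control, -0.012 for 235725_at of SMAD4, -0.041 for 223679_at and 0.034 for the BBC3 probe set between the arms. The block changed no call. The causes were not tested.

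All other sign changes came with an array left out. The main differences concerned ran from -0.147 (204696_s_at of CDC25A, miR-483-3p against the control) to 0.259 (235725_at of SMAD4, between the arms). For miR-483-3p against the control the ranges were -0.30 to 0.007 (204696_s_at of CDC25A), -0.18 to 0.058 (1554411_at of CTNNB1), -0.098 to 0.17 (223679_at), -0.051 to 0.51 (1565703_at of SMAD4) and -0.004 to 0.24 (202526_at). Between the arms they were -0.11 to 0.021 (BBC3), -0.26 to 0.031 and -0.039 to 0.046 (1554411_at and 223679_at), -0.009 to 0.14 (216396_s_at of EI24), and -0.17 to 0.25, -0.004 to 0.13 and -0.049 to 0.57 (202526_at, 202527_s_at and 235725_at of SMAD4). For miR-483-5p against the control they were -0.092 to 0.20 and -0.10 to 0.16 (1554411_at and 223679_at), -0.10 to 0.23 and -0.26 to 0.15 (209541_at and 241072_s_at of IGF1), and -0.14 to 0.29 and -0.12 to 0.50 (202526_at and 235725_at).

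EI24 stayed above the control in both probe sets under all alternatives, from 0.47 to 0.64 and from 0.51 to 0.81 with miR-483-3p. With a pseudocount of 1, 216396_s_at lost its unadjusted p under 0.05 with miR-483-3p, and 208289_s_at lost it with miR-483-5p. Probe set 211577_s_at of IGF1 lost its unadjusted p under 0.05 without either control array, with the block and with a variance prior that follows intensity, and was 0.84 with a pseudocount of 1 and 0.31 with 100. Probe set 241072_s_at was -0.96 with a pseudocount of 1 (unadjusted p under 0.05) and -0.25 with 100. Without the second miR-483-5p array, 209540_at of IGF1 passed the filter at -0.72 (unadjusted p under 0.05).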
